A study of Mus musculus with 9 samples.

Results

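Transcripts of 10 genes of autophagy and mitophagy were followed in mouse plantaris muscle during breathing of 8% oxygen. They were Ulk1, Becn1, Map1lc3a, Map1lc3b, Gabarapl1, Sqstm1, Bnip3, Bnip3l, Fundc1 and Pink1, taken by symbol from the 13722 genes of the deposited table, and each symbol had 1 row. The plantaris is a fast ankle extensor of the hindlimb. It came from male C57BL/6J mice aged 3 months that were kept for 0 h (control), 2 h or 6 h at 8% oxygen and killed when the exposure ended, with 3 RNA-seq libraries per group. The labels give 1 control group for both times, so exposure cannot be told apart from clock time or time in the chamber. Whether every library stands for a mouse of its own is not stated in the labels, so the p-values describe variation among libraries.

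Autophagy encloses cytoplasm in a double membrane, the autophagosome, and delivers it to the lysosome. The kinase ULK1 starts the process and a lipid kinase complex that holds beclin 1 marks the membrane. Proteins of the Atg8 family, LC3 and GABARAP, are then joined to membrane lipid and bind receptors that carry the cargo. Mitophagy is the same process aimed at mitochondria. It can be started by receptors that sit in the outer mitochondrial membrane, such as BNIP3, NIX and FUNDC1, or by the kinase PINK1, which collects on damaged mitochondria and recruits the ubiquitin ligase parkin. Bnip3 is a known target of the hypoxia-inducible factor HIF-1, and in muscle the FoxO transcription factors are known to drive Bnip3 and several Atg8 genes during wasting.

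The promoters of 3 of these genes are shown because they differ in the letters known from hypoxia and autophagy factors. Bnip3 is the known HIF-1 target, Pink1 had the largest fold difference of the 10 and Map1lc3b was above every control library at both times. Each line holds the 250 bases before the annotated start, in the direction of transcription, from RefSeq on GRCm38.p6. Capitals mark matches on either strand to the hypoxia response cores ACGTG and GCGTG and to the E-box CACGTG of the TFEB family, whose letters contain ACGTG on both strands.
Bnip3: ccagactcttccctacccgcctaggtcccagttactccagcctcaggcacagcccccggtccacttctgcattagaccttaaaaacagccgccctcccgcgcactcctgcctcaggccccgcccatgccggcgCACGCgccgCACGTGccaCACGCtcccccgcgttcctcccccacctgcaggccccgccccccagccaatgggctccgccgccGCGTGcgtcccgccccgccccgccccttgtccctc
Map1lc3b: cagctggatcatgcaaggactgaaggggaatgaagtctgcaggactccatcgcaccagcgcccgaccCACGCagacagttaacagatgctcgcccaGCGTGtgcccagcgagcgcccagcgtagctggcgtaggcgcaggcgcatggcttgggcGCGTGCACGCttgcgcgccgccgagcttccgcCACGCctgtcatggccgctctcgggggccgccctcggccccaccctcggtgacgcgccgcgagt
Pink1: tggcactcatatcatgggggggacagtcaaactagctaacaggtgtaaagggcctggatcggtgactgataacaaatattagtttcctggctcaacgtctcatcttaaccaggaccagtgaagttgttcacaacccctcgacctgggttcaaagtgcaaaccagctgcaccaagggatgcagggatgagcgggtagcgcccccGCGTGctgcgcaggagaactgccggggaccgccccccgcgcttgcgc
The windows lie at chr7:138909507-138909756 on the minus strand for Bnip3, at chr8:121590188-121590437 on the plus strand for Map1lc3b and at chr4:138326297-138326546 on the minus strand for Pink1. Bnip3 has an E-box that begins 108 bases before the start, with GCGTG cores at 117, 99 and 35 bases. Map1lc3b has GCGTG cores at 183, 154, 96, 91 and 64 bases, and Pink1 has 1 at 47 bases. Windows of 300 bases, which add the 50 bases after the start, were found for 7 of the 10 genes, and Map1lc3a, Bnip3l and Becn1 were not matched. Of the 7, 4 hold either core (Bnip3, Map1lc3b, Pink1 and Ulk1), where 43.8% of all 32851 RefSeq windows do. ACGTG is in 19.6% of all windows, GCGTG in 32.4% and CACGTG in 7.15%. The FoxO element GTAAACA, in 3.65% of all windows, is in none of the 7. A match describes letters and is not a bound site.

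Expression is given as RPKM, reads scaled by exon length and by library size, which allows levels to be set side by side between genes. The 10 genes covered a wide range of levels. In control muscle Pink1 was the most abundant at 285 ± 36.2 RPKM (mean ± SD, n = 3 here and throughout), and its mean over all libraries stood at percentile 98.8 of all genes. Fundc1 was the least abundant at 10.9 ± 0.912 RPKM, at percentile 72.4. Between them the control order ran Sqstm1, Map1lc3a, Bnip3, Map1lc3b, Gabarapl1, Becn1, Bnip3l and Ulk1. Neighbours in this order overlapped between control libraries for Sqstm1 and Map1lc3a, for Gabarapl1 and Becn1 and for Bnip3l and Ulk1. The other neighbours did not overlap. Each gene was well covered, with at least 1695 reads per library for Fundc1 and up to 145420 for Pink1. Across all 9 libraries the highest value of a gene was between 1.41 times (Bnip3l) and 2.09 times (Pink1) its lowest.

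**Figure D1:**
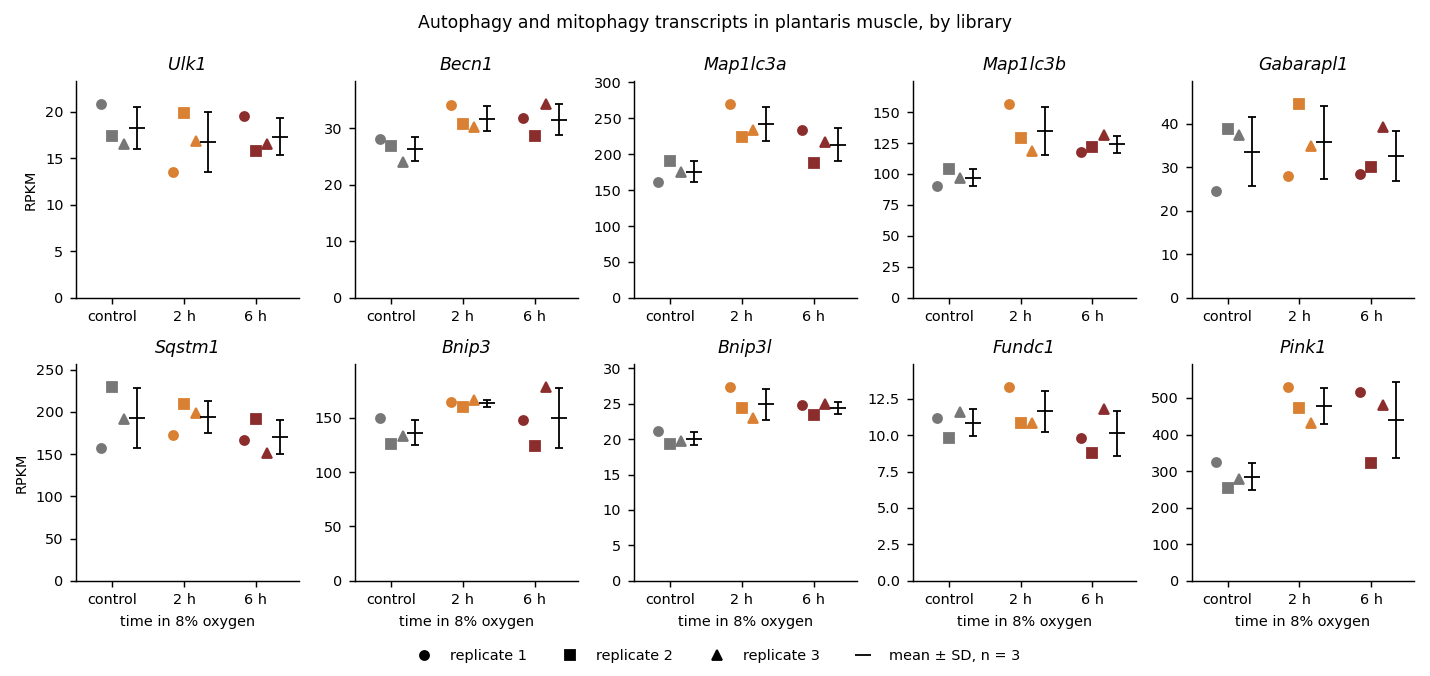
Level of each of the 10 transcripts in RPKM (vertical axes, linear and starting at 0, with a scale of their own) in control muscle and after 2 h and 6 h in 8% oxygen. Points are libraries with the replicate number as symbol and bars are the mean ± SD (n = 3); for Map1lc3b, Becn1 and Bnip3l all 6 hypoxia libraries lie above the highest control library, while no hypoxia library does so for Sqstm1 or Ulk1.

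None of the 10 transcripts passed the test at 2 h or at 6 h. The test was limma on log2(RPKM + 0.5) over 13309 genes, with a Benjamini-Hochberg adjusted p under 0.05, and it called 0.774% of all genes in 2 h against control and 1.6% in 6 h against control. At 2 h against control 9 of the 10 had a higher mean, Ulk1 being the exception, where 49.9% of all genes had one. Their median log2 difference was 0.26, against -0.0003 over all genes. Of the 10, 5 reached an unadjusted p under 0.05, all higher (Pink1, Map1lc3b, Map1lc3a, Bnip3l and Becn1), where 11.2% of all genes did so. In 6 of the 10, these 5 and Bnip3, every 2 h library lay above every control library, as in 14.9% of all genes. edgeR on recovered reads called 0 of the 10 at either time, and called 0.556% of all genes higher at 2 h and 0.924% at 6 h. DESeq2 on the same reads called Map1lc3b (adjusted p = 0.00381), Pink1 (adjusted p = 0.00582), Map1lc3a (adjusted p = 0.0135) and Bnip3l (adjusted p = 0.0263) higher at 2 h, where it called 5.81% of the genes it tested higher.

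At 6 h against control 6 of the 10 had a higher mean, as 57.4% of all genes had, and the median log2 difference was 0.19, against 0.05 over all genes. The same 5 genes had an unadjusted p under 0.05, where 12% of all genes did and were higher. Only Map1lc3b, Bnip3l and Becn1 of the 10 had every 6 h library above every control library, as in 16.9% of all genes. DESeq2 called Pink1 alone (adjusted p = 0.0419), and 4.02% of the genes it tested higher. With weights that limma estimated for each library, 6 of the 10 passed at 2 h and 5 at 6 h, all higher, where 11.4% of all genes passed and were higher at 2 h and 17.3% at 6 h. At 6 h against 2 h no transcript passed the test, which called 0.143% of all genes. Of the 10, 0 had an unadjusted p under 0.05, where 16.4% of all genes did, and 0 had groups that did not overlap, where 22.6% did. edgeR called 0, with 0.24% of all genes higher and 0.361% lower, and DESeq2 called 0, with 3.48% higher and 3.67% lower. In that comparison 9 of the 10 means were lower at 6 h, where 57.5% of all genes were higher, with a median log2 difference of -0.13 and a range of -0.20 (Fundc1) to 0.06 (Ulk1), against a median of 0.05 over all genes.

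**Figure D2:**
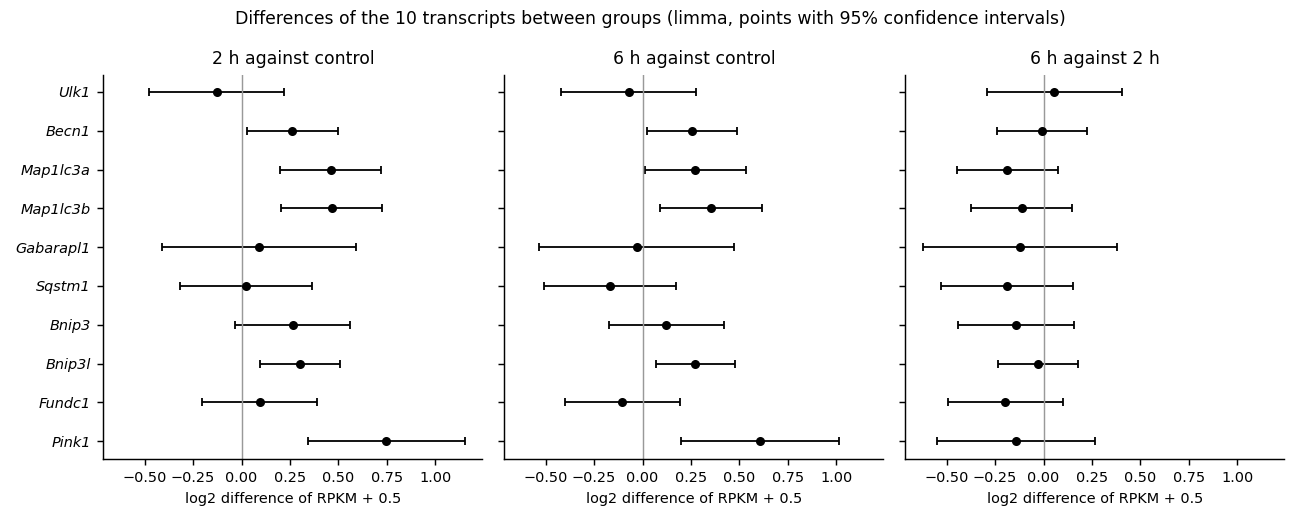
Difference in log2(RPKM + 0.5) of each of the 10 transcripts for the 3 comparisons (horizontal axis, log2), with points for the estimate and lines for the 95% confidence interval of limma, before adjustment for the number of genes. Pink1 has the largest estimates against control, 0.75 at 2 h and 0.61 at 6 h, and the intervals of 6 h against 2 h all include 0.

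Ulk1, the kinase at the start of the pathway (chr5:111213507-111239116 on mm9, minus strand), had 20.8, 17.4 and 16.5 RPKM in the control libraries, 13.5, 19.9 and 16.9 at 2 h and 19.6, 15.8 and 16.5 at 6 h. The 3 groups overlapped. Its log2 difference was -0.13 at 2 h (95% confidence interval -0.48 to 0.22, adjusted p = 0.675) and -0.07 at 6 h (adjusted p = 0.837). Becn1, which encodes beclin 1 (chr11:101147266-101163600, minus strand), had 28.1, 26.8 and 24.0 RPKM in control, 34.1, 30.7 and 30.1 at 2 h and 31.7, 28.6 and 34.2 at 6 h. All 6 hypoxia libraries lay above the highest control library, 6 h replicate 2 only just. The log2 difference was 0.26 ± 0.10 (SE) at 2 h (interval 0.03 to 0.50, adjusted p = 0.202) and 0.25 at 6 h (interval 0.02 to 0.49, adjusted p = 0.223). Becn1 overlaps Cntd1 on the opposite strand, and whether reads were counted by strand is not given in the sources used here, so reads of the pair may be shared.

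The Atg8 genes encode the proteins that coat the growing membrane. Map1lc3a, which encodes LC3A (chr2:155102033-155103809, plus strand), had 162, 191 and 175 RPKM in control, 269, 224 and 234 at 2 h and 233, 188 and 218 at 6 h. All 2 h libraries were above all controls, while 6 h replicate 2 lay between control replicates. The log2 difference was 0.46 ± 0.12 at 2 h (interval 0.20 to 0.72, adjusted p = 0.0827) and 0.27 at 6 h (interval 0.01 to 0.53, adjusted p = 0.242). Map1lc3b, which encodes LC3B, the usual marker of autophagosomes (chr8:124114368-124121947, plus strand), had 90.1, 104 and 96.7 RPKM in control, 156, 129 and 119 at 2 h and 118, 122 and 132 at 6 h. Both hypoxia groups were wholly above control and overlapped each other. Its log2 difference was 0.46 ± 0.12 at 2 h (interval 0.20 to 0.73, adjusted p = 0.0818) and 0.35 at 6 h (interval 0.09 to 0.61, adjusted p = 0.156).

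Gabarapl1, a GABARAP homologue (chr6:129483218-129492349, plus strand), had 24.5, 38.9 and 37.5 RPKM in control, 27.9, 44.4 and 34.8 at 2 h and 28.5, 30.0 and 39.2 at 6 h. Here the groups overlapped, and replicate 1 was the lowest library of each group. The log2 difference at 2 h was 0.09, with an interval of -0.41 to 0.59 that was the widest of the 10 (adjusted p = 0.852), and that at 6 h was -0.03 (adjusted p = 0.956). Map1lc3a overlaps Pigu and Gabarapl1 overlaps 1700101I11Rik and Klrk1, all on the opposite strand, and Map1lc3b overlaps Gm20388 on its own strand, so their reads may be shared. With Gabarap and Gabarapl2, named here after their values were seen, the family has 5 measured genes. All 5 means were higher at 2 h than in control, as 49.9% of all genes were, and 4 of the 5 had every 2 h library above every control library, as 14.9% of all genes had. Since the family was completed after values were seen, these counts are a description. Gabarap had a log2 difference of 0.47 at 2 h (adjusted p = 0.166) and Gabarapl2 of 0.25 (adjusted p = 0.233). Of the family's summed RPKM, Map1lc3a made up 39.1% in control, 40.2% at 2 h and 40.4% at 6 h, and Map1lc3b 21.5% in control, 22.2% at 2 h and 23.5% at 6 h. Gabarap made up 20.4% in control, 21.2% at 2 h and 19.3% at 6 h. Gabarapl1 made up 7.40% in control, 6.05% at 2 h and 6.17% at 6 h. The share of Gabarapl2 was 9.78% to 10.6% in the 2 h libraries against 11.3% to 12.0% in the control libraries, without overlap, and 9.85% to 11.6% at 6 h. That of Map1lc3b was 22.4% to 24.3% in the 6 h libraries against 21.2% to 22.2% in control, also without overlap. These shares were not tested.

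Sqstm1 encodes p62, the receptor that ties ubiquitin-marked cargo to LC3 (chr11:50012868-50024329, minus strand). It had 158, 229 and 191 RPKM in control, 173, 210 and 199 at 2 h and 167, 192 and 152 at 6 h. No hypoxia library was above the highest control library. The log2 difference was 0.02 at 2 h (interval -0.32 to 0.36, adjusted p = 0.952) and -0.17 at 6 h (adjusted p = 0.591), and at 2 h its sign turned with quantile normalization and in edgeR. Sqstm1 overlaps 3010026O09Rik on the opposite strand, and reads may be shared.

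Among the mitophagy receptors, Bnip3 was by far the most abundant, at 81.5% of the summed RPKM of Bnip3, Bnip3l and Fundc1 in control, 81.7% at 2 h and 81.1% at 6 h. The share of Fundc1 was 5.36% to 5.64% in the 6 h libraries against 6.16% to 7.02% in control, without overlap, and was not tested. Bnip3 (chr7:146082519-146101202 on mm9, minus strand) had 149, 126 and 133 RPKM in control, 164, 160 and 166 at 2 h and 148, 124 and 178 at 6 h. The 2 h libraries lay close together above all controls, while the 6 h libraries held both the lowest and the highest value of the 9. Its log2 difference was 0.26 ± 0.13 at 2 h (interval -0.03 to 0.56, adjusted p = 0.299) and 0.12 at 6 h (adjusted p = 0.658). The 6 h value was -0.01 without 6 h replicate 3. Bnip3l encodes NIX, the receptor that clears mitochondria from maturing red cells (chr14:67604076-67627714, minus strand). It had 21.1, 19.4 and 19.7 RPKM in control, 27.3, 24.5 and 23.0 at 2 h and 24.8, 23.4 and 24.9 at 6 h. All 6 hypoxia libraries were above all controls, with a log2 difference of 0.30 ± 0.09 at 2 h (interval 0.10 to 0.51, adjusted p = 0.123) and 0.27 at 6 h (interval 0.07 to 0.48, adjusted p = 0.161). Fundc1 encodes a receptor known to act in hypoxic mitophagy (chrX:17133690-17149451, minus strand). It had 11.2, 9.83 and 11.6 RPKM in control, 13.3, 10.8 and 10.8 at 2 h and 9.77, 8.78 and 11.8 at 6 h. The groups overlapped, with a log2 difference of 0.09 at 2 h (interval -0.20 to 0.39, adjusted p = 0.725) and -0.10 at 6 h (adjusted p = 0.708).

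Pink1, the kinase of the parkin route (chr4:137869324-137882222 on mm9, minus strand), had the largest difference of the 10. It had 324, 252 and 278 RPKM in control, 529, 472 and 432 at 2 h and 517, 323 and 480 at 6 h. Every 2 h library was above every control library, and at 6 h replicate 2 was just below the highest control. The means were 477 ± 48.9 RPKM at 2 h against 285 ± 36.2 in control, a log2 difference of 0.75 ± 0.18 or 1.68-fold (interval 0.34 to 1.15, adjusted p = 0.0778). The 6 h mean was 440 ± 103 RPKM, with a log2 difference of 0.61 or 1.52-fold against control (interval 0.20 to 1.01, adjusted p = 0.126). In the authors' deposited table Pink1 has the same folds, with an adjusted p of 0.109 at 2 h and 0.247 at 6 h. Pink1 passed the limma test when 6 h replicate 2 was left out, with an adjusted p of 0.0271 at 2 h and a log2 difference of 0.81 (adjusted p = 0.0269) at 6 h. In that fit 1.53% of all genes passed and were higher at 2 h and 1.54% at 6 h. The library left out holds the lowest 6 h value of Pink1. Without any other single library limma called 0 to 73 of all genes higher at 2 h and 6 to 141 at 6 h. Pink1 did not pass in those fits, with a limma adjusted p of up to 0.249 at 2 h and 0.334 at 6 h. Over all single libraries left out, its log2 difference was 0.66 to 0.84 at 2 h and 0.48 to 0.81 at 6 h.

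Several libraries differed in the level of marker genes of cell types and tissues. Control replicates 2 and 3 and 6 h replicate 2 were high in fibroblast and matrix genes and in macrophage genes. Of the matrix genes 9 of 10 were higher in each of these 3 than in any other library, and of the macrophage genes 10 of 10. The 3 were grouped for their matrix genes and the share of all genes was not counted, so these counts are a description. The summed matrix level was 326 to 429 RPKM at 2 h, against 631, 989 and 1098 RPKM in control replicates 1 to 3. At 6 h it was 574, 1162 and 407 RPKM. So every 2 h library was below every control library in summed matrix RNA. One by one, 6 of the 10 matrix genes were lower without overlap, where 12.6% of all genes were. Endothelial genes summed to 57.1 to 74.7 RPKM at 2 h against 76.2 to 82.5 RPKM in control, without overlap. At 6 h they summed to 68.8 to 84.8 RPKM. Singly, 2 of the 8 were lower in every 2 h library than in every control library, where 12.6% of all genes were. Of the 8, only Kdr, a receptor of vascular growth factor, passed the limma test. It fell at 2 h, with 2.70, 2.55 and 1.72 RPKM against 6.68, 4.71 and 5.49 RPKM in control (adjusted p = 0.0486), where 0.301% of all genes passed and were lower. The Kdr call was lost without control replicate 2, control replicate 3 or 2 h replicate 2, where 0 of all genes were called lower. No gene of another marker list passed in any comparison. The part of endothelial RNA in the 2 h values was not tested. In 6 h replicate 2, 7 of the 10 autophagy transcripts had their lowest 6 h value. The share of all genes that did so was not counted, so this is a description. In bulk muscle, fewer cells of a type and less RNA per cell cannot be told apart. Without these 3 libraries, which leaves 1 control library assumed to vary like the other groups, the log2 difference of Pink1 was 0.55 at 2 h and 0.62 at 6 h, and that of Map1lc3b at 2 h was 0.57. With a term for the 3 libraries in the fit, Pink1 had 0.44 at 2 h and 0.45 at 6 h. Map1lc3b had 0.50, Map1lc3a 0.43, Bnip3l 0.24, Becn1 0.15 and Bnip3 0.07 at 2 h in that fit. Slow-fibre genes summed to 633 to 647 RPKM in control, to 435 to 545 RPKM at 2 h and to 945, 1193 and 5716 RPKM in 6 h replicates 1 to 3, and nerve genes to 651 RPKM in 6 h replicate 1 against 54.2 to 86.4 elsewhere. Red-cell genes summed to 1064 to 3183 RPKM in control, 435 to 2248 at 2 h and 2990 to 7040 at 6 h. The part of slow fibres, nerve and red cells in the 6 h values was not tested. All 11 muscle markers were present in every library, with sums of 91860 to 107740 RPKM.

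The wider pathway was described by 120 symbols in 11 lists, of which 119 were in the table and tested. At 2 h 75 of the 119 had a higher mean than in control and the median log2 difference was 0.08. Of the 119, 3 passed the test and rose (Foxo1, Tcfeb and Wdr45), where 0.473% of all genes did, and none fell, where 0.301% did. DESeq2 called 17 of the 119 higher at 2 h, where it called 5.81% of the genes it tested higher, and 3 lower, where it called 5.24%. At 6 h 1 rose (Foxo1), where 0.999% of all genes did, and 2 fell (Atg16l2 and Flcn), where 0.601% did, and the median was 0.04. In that comparison edgeR called 4 lower, where it called 1.45% of all genes lower. DESeq2 called 4 higher, where it called 4.02%, and 6 lower, where it called 4.83%. Library weights in limma called 28 of the 119 higher and 8 lower at 2 h, where 11.4% and 11.7% of all genes passed in these directions. At 6 h they called 29 higher and 18 lower, where 17.3% and 13.6% of all genes did. At 6 h against 2 h none passed limma, with 7 higher and 15 lower at an unadjusted p under 0.05, where 9.88% of all genes were higher and 6.52% lower, while edgeR called 3 lower, where it called 0.361% of all genes lower, and DESeq2 10, where it called 3.67%. Library weights called 2 lower in that comparison, where 0.421% of all genes did. None of the ULK complex (5 genes), class III lipid kinase (9), Atg8 (5), cargo receptor (11), mitophagy (18), fusion (9) or lysosome (16) lists held a gene that passed the limma test in any of the 3 comparisons, though DESeq2 called genes of the class III lipid kinase, Atg8, cargo receptor, mitophagy and lysosome lists. Their 2 h medians ran from -0.02 (fusion) to 0.46 (Atg8 family). At 6 h the medians of these lists ran from -0.10 (cargo receptors) to 0.25 (class III lipid kinase).

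**Figure D3:**
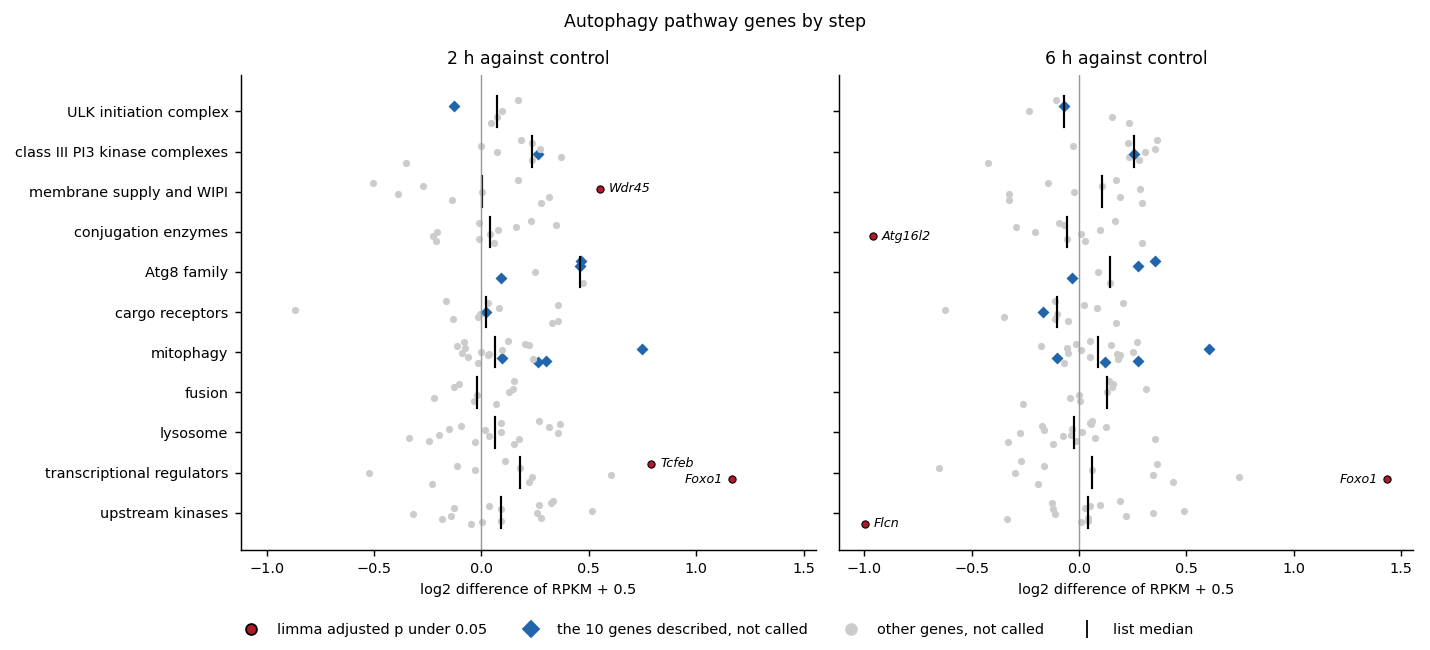
Difference in log2(RPKM + 0.5) of each of the 119 pathway genes, by list, for 2 h against control and 6 h against control (horizontal axes, log2). Points are genes, diamonds the 10 described here, filled red points those that passed the limma test and upright bars the list medians; the Atg8 list has its median at 0.46 at 2 h.

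Of the 5 genes that passed against control, 2 encode transcription factors. Foxo1, a FoxO transcription factor, had 5.17, 4.47 and 4.85 RPKM in control, 9.39, 13.9 and 11.5 at 2 h and 13.2, 13.8 and 14.7 at 6 h. It rose at 2 h by a log2 difference of 1.17 (adjusted p = 0.0197) and at 6 h by 1.43 (adjusted p = 0.00651). No hypoxia library overlapped control. The 6 h call held when any single library was left out, and the 2 h call was lost without control replicate 2 or 3 or 2 h replicate 2 or 3 (adjusted p 0.0672 to 0.113), and with a term for the 3 libraries high in matrix genes (adjusted p = 0.0694). Of all genes, 0 were called higher at 2 h without control replicate 2, control replicate 3 or 2 h replicate 2. Without 2 h replicate 3 there were 4 and with the term 2, against 63 in the main fit. So these losses were not particular to Foxo1. Foxo1 overlaps RP24-337A16.1 on the opposite strand, and reads may be shared.

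Tcfeb, the table's symbol for the gene of TFEB, a transcription factor of lysosome and autophagy genes, had 59.5, 48.2 and 43.7 RPKM at 2 h, against 29.8, 28.6 and 27.9 RPKM in control. At 2 h it rose by a log2 difference of 0.79 (adjusted p = 0.0486), and at 6 h the means were 37.5 ± 6.13 RPKM against 28.8 ± 0.928 in control (log2 difference 0.37, adjusted p = 0.213). Wdr45, which encodes the lipid-binding protein WIPI4, had 32.6, 28.9 and 27.4 RPKM at 2 h, against 20.9, 20.6 and 18.6 RPKM in control, and rose by 0.55 (adjusted p = 0.0430). Its 6 h value was 0.28 (adjusted p = 0.160). Both 2 h calls held without 6 h replicate 2 and were lost without any other single library, with an adjusted p of 0.0599 to 0.199 for Tcfeb and 0.0502 to 0.195 for Wdr45. Of all genes, the fit without control replicate 1 called 73 higher at 2 h, and the others that lost the calls 0 to 18. The main fit called 63. Both calls were also lost without the mean-variance trend (adjusted p = 0.0668 for Tcfeb and 0.0612 for Wdr45) and with the term for the 3 libraries (adjusted p = 0.126 for Tcfeb and 0.106 for Wdr45). Wdr45 also lost its call when 6 h libraries were kept out of the 2 h fit (adjusted p = 0.0573). These 3 fits called 12, 2 and 58 of all genes higher at 2 h, in that order.

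Atg16l2, a relative of the conjugation factor ATG16L1, had 0.848, 0.967 and 0.845 RPKM at 6 h, against 2.34, 1.92 and 2.35 RPKM in control. It fell by 0.96 on the log2 scale (adjusted p = 0.0243), with 1.82 ± 0.362 RPKM at 2 h (log2 difference -0.23 against control, adjusted p = 0.415). Flcn, which encodes folliculin, a regulator of nutrient signalling at the lysosome, had 6.31, 7.32 and 6.70 RPKM at 6 h, against 12.8, 14.3 and 15.0 RPKM in control, a log2 difference of -0.997 (adjusted p = 0.0318). In both genes every 6 h library was below every control and every 2 h library. The Atg16l2 call was lost without any one control or 6 h replicate 1 or 3 (adjusted p 0.0553 to 0.114). The Flcn call was lost without any of these or 2 h replicate 3 (adjusted p 0.0505 to 0.122). Of all genes, 69, 8 and 6 were called lower at 6 h without control replicates 1, 2 and 3 in turn. Without 6 h replicate 1 or 3 there were 7 and 4, and without 2 h replicate 3 there were 41, against 80 in the main fit. Without the 3 libraries high in matrix genes, which leaves 1 control library, the log2 differences of Foxo1 were 1.07 at 2 h and 1.35 at 6 h. Those of the others were 0.74 for Tcfeb and 0.49 for Wdr45 at 2 h, and -1.08 for Atg16l2 and -0.93 for Flcn at 6 h. Whether a call holds in that fit cannot be read, since 1 control library has no spread of its own.

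**Figure D4:**
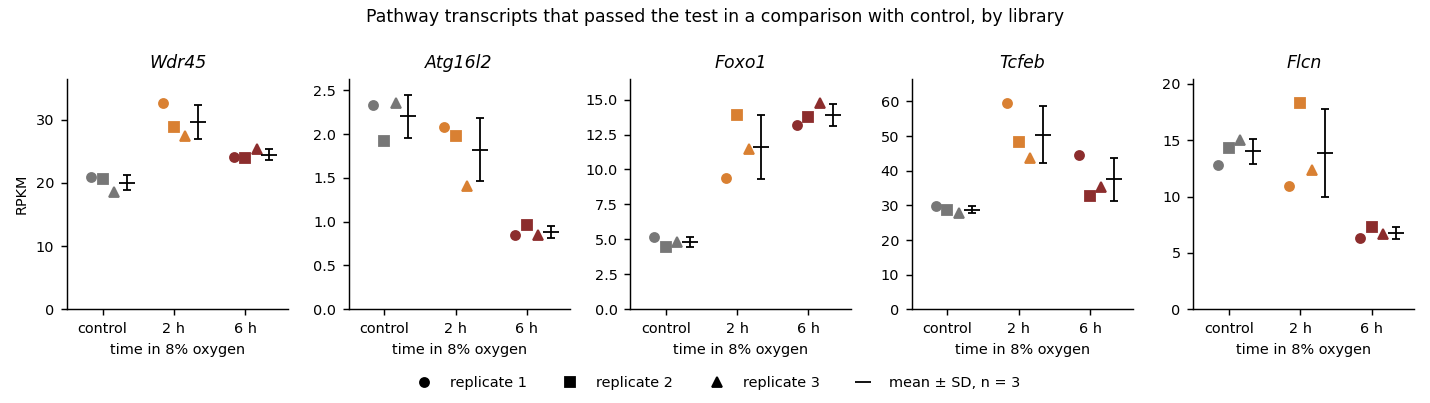
Level in RPKM (vertical axes, linear and starting at 0) of the 5 pathway transcripts that passed the limma test against control at either time, in control muscle and after 2 h and 6 h in 8% oxygen. Points are libraries with the replicate number as symbol and bars are the mean ± SD (n = 3); Foxo1 is above control in all 6 hypoxia libraries, and Atg16l2 and Flcn are below all other libraries at 6 h.

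In the lists where no gene passed the limma test, the gene with the smallest limma p was named. Pik3c3, the catalytic lipid kinase of the beclin 1 complex, had a log2 difference of 0.35 at 6 h against control (limma adjusted p = 0.0632), and it was called by DESeq2 (adjusted p = 0.00257) and with library weights (adjusted p = 0.00798). Ncoa4, the receptor for ferritin, had -0.35 in the same comparison (limma adjusted p = 0.0892), and it was called by edgeR (adjusted p = 0.0456), DESeq2 (adjusted p = 0.00135) and with library weights (adjusted p = 0.00423). Gaa, the lysosomal enzyme that breaks down glycogen, had -0.63 at 6 h against 2 h (limma adjusted p = 0.0994). It was called by edgeR (adjusted p = 0.0492), by DESeq2 (adjusted p = 1.74e-05), with library weights (adjusted p = 0.0434) and with median scaling (adjusted p = 0.0492). At 6 h against 2 h the values were -0.33 for Rb1cc1, a scaffold of the ULK complex (limma adjusted p = 0.236), and 0.28 for Vamp8, a fusion protein of the lysosome (limma adjusted p = 0.178). In the Atg8 and mitophagy lists these were Map1lc3b and Pink1.

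Of all genes, those whose pattern over the 9 libraries was closest to Pink1 were Aldh2, Gcdh and Gcat, which encode mitochondrial enzymes. Likeness was the root mean square difference of log2(RPKM + 0.5) after each gene was centred on its mean, and it was 0.0827 for Aldh2, 0.0837 for Gcdh and 0.114 for Gcat, where the same measure of Pink1 about its own mean was 0.383. At 2 h against control the log2 differences were 0.75 for Aldh2 (adjusted p = 0.0564), 0.66 for Gcdh (adjusted p = 0.135) and 0.79 for Gcat (adjusted p = 0.0982). The 6 h values were 0.60, 0.53 and 0.63 in the same order. All 3 were lower in 6 h replicate 2 than in the other 6 h libraries, as Pink1 was. These genes were chosen for their likeness over the same libraries, so their values are a description.

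**Figure D5:**
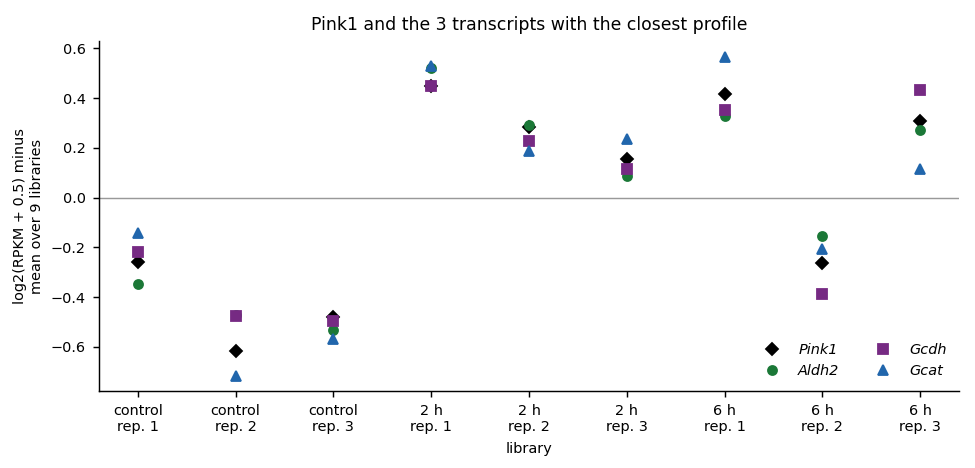
Centred log2(RPKM + 0.5) of Pink1 and of the 3 genes with the closest pattern, Aldh2, Gcdh and Gcat, in each of the 9 libraries (vertical axis, log2 difference from the gene's own mean). Points are libraries; all 4 genes are lower in 6 h replicate 2 than in the other 6 h libraries.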

How the data were processed

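RNA-seq was made from plantaris muscle of mice after 0, 2 or 6 h in 8% oxygen, 3 libraries a group, with groups and replicate numbers read from the sample titles. The genome build is mm9 and the tools named are Bowtie2 and TopHat2 with FastQC, SAMtools and bedtools, per the submitters' processing notes, which give no versions. Neither the step from alignments to gene counts nor its use of strand is given in the sources used here. The values the authors deposited per library were taken as RPKM because of their range and steps. Beside these, each gene has its largest read count, fold changes against control and p-values by the authors in the deposited table, with no test named in the sources used here. Whole reads, within 0.1 read, came out of the RPKM steps for 100% of 41880 values below 500 reads. Recovered library totals were 72706716 to 137097898 reads.

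In R 4.3.3, limma 3.58.1 fitted group means to the log2(RPKM + 0.5) values of all 9 libraries and let the variance follow the mean. Genes averaging 0.5 RPKM or more entered it, 13309 in all, and Benjamini-Hochberg adjustment ran over these, with a threshold of 0.05. A fold change on this scale understates that of genes near 0.5 RPKM. The test was checked on simulated data. The 10 members and all lists were chosen with earlier results of these data known. All 10 members were named, with every pathway gene that passed, the gene of smallest p of each list without one, and the 3 genes with symbols closest in pattern to the member of smallest p. Of the 120 pathway symbols, 8 were matched through the gene ID of the current symbol and Atg9b was not matched. Alternatives were edgeR 4.0.16 and DESeq2 1.42.0 on the recovered reads, other pseudocounts, filters and scalings, no trend, library weights, a replicate block, only the groups compared, and leaving out libraries. Promoters were RefSeq windows on GRCm38.p6, and gene coordinates are those of the file on mm9.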

Additional observations from a re-analysis of the deposited data

How the results depend on the processing

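The 10 members gave 690 values under 23 alternatives, of which 651 kept their direction. Some alternatives cannot change a log2 difference. These are other filters, no trend, only the groups compared, the replicate block, and leaving out a library of a group not compared. The count is therefore a description. Of the members with an unadjusted limma p under 0.05 against control, none reversed, but these were picked by the same values. With edgeR the count of members called stayed at 0, and DESeq2 called 4 at 2 h and 1 at 6 h. Library weights called 6 members at 2 h and 5 at 6 h, where they called 11.4% and 17.3% of all genes higher. Of the pathway genes, library weights called 28 higher and 8 lower at 2 h (11.4% and 11.7% of all genes), 29 higher and 18 lower at 6 h (17.3% and 13.6%), and 2 lower at 6 h against 2 h (0.421%). DESeq2 called 17 higher and 3 lower at 2 h (5.81% and 5.24% of the genes it tested), 4 higher and 6 lower at 6 h (4.02% and 4.83%), and 10 lower at 6 h against 2 h (3.67%). edgeR called 4 lower at 6 h (1.45% of all genes) and 3 lower at 6 h against 2 h (0.361%). A filter at a mean of 2 RPKM called 1 lower at 6 h (70 of all genes it kept), where Atg16l2, at a mean of 1.64 RPKM, was not tested. Median scaling called 2 lower at 6 h against 2 h (33 of all genes), and no trend 1 higher at 2 h (12 of all genes). With a term for the 3 libraries high in matrix genes the count was 0 higher at 2 h (2 of all genes). At 6 h it was 2 higher (246 of all genes), and at 6 h against 2 h 1 lower (40 of all genes). Counts without those 3 libraries are not given, since 1 control library is left. Leaving out single libraries gave 0 to 1 members at either time, and 0 to 4 pathway genes higher and 0 to 1 lower at 2 h and 1 to 2 higher and 0 to 2 lower at 6 h. Of all genes, those fits called 0 to 204 higher and 0 to 192 lower at 2 h. At 6 h they called 6 to 205 higher and 4 to 212 lower. The cause of the other changes was not tested.

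Of the 9 pairs of same-numbered replicates, 2 correlated above 0.1 in their deviations from the group means, with a range of -0.331 to 0.493. With 3 libraries per group these correlations cannot settle whether the numbers mark pairs, and the labels do not say. With the replicate block 0 members were called and the pathway counts were 0 higher at 2 h, 0 lower and 1 higher at 6 h. Of all genes, the block called 0 higher and 1 lower at 2 h, and 25 higher and 18 lower at 6 h.

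Reversed log2 values were these. Sqstm1 at 2 h had -0.0122 with quantile normalization and -0.00804 in edgeR. Library weights gave at 2 h -0.00632 for Gabarapl1, 0.0345 for Ulk1 and -0.00365 for Fundc1, at 6 h 0.12 for Ulk1, and at 6 h against 2 h 0.00667 for Bnip3l, 0.0323 for Becn1 and 0.0358 for Pink1. Without the 3 libraries the values were 0.0736 for Flcn at 2 h, 0.44 for Gabarapl1 and 0.0133 for Sqstm1 at 6 h, and 1.91e-05 for Bnip3l, 0.058 for Becn1 and 0.0657 for Pink1 at 6 h against 2 h. With the term they were -0.0211 for Fundc1 and 0.0653 for Flcn at 2 h, 0.0477 for Gabarapl1 at 6 h, and 0.00388 for Bnip3l, 0.0492 for Becn1 and 0.0102 for Pink1 at 6 h against 2 h. Leaving out single libraries gave at 2 h -0.12 to 0.25 for Gabarapl1, -0.11 to 0.15 for Sqstm1, -0.26 to 0.0129 for Ulk1, -0.000363 to 0.14 for Fundc1 and -0.26 to 0.10 for Flcn. At 6 h it gave -0.00924 to 0.25 for Bnip3, -0.24 to 0.0865 for Gabarapl1 and -0.16 to 0.0234 for Ulk1. At 6 h against 2 h it gave -0.0845 to 0.0377 for Bnip3l, -0.28 to 0.0468 for Gabarapl1, -0.0849 to 0.19 for Ulk1, -0.0676 to 0.058 for Becn1 and -0.27 to 0.0657 for Pink1.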
